A study of Mus musculus with 8 samples.

Results

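Collagen chain genes were examined in mouse bone marrow mesenchymal stem cells (MSCs), the adherent stromal cells of the marrow, that carry or lack the m6A methyltransferase gene Mettl3. They were taken as every protein-coding entry of the expression table whose symbol has the form Col, a type number, the letter a and a chain number. This gave 44 genes among 47643 named entries, of which 36 had enough counts to be tested. RNA-seq comprised 2 libraries labelled WT (wild type, described in the study as Mettl3 fl/fl littermates) and 2 libraries labelled cKO (Prx1-cre;Mettl3fl/fl). MeRIP-seq, in which RNA fragments are pulled down with an antibody against N6-methyladenosine (m6A) and compared with input RNA, comprised 2 m6A immunoprecipitates and 2 inputs of wild type cells. All mice were C57BL/6, their age is not stated for these samples, and all cells were kept for 2 days in osteogenic medium, which held dexamethasone at 100 nM, β-glycerophosphate at 5 mM and ascorbic acid at 50 µg/ml. Prx1-Cre is driven by a limb bud mesenchyme promoter and deletes exons 2 and 3 of Mettl3, so cells of other origin in the cultures keep the gene.

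Collagens are the main structural proteins of the extracellular matrix. Each molecule is a trimer of chains that wind into a triple helix wherever the sequence repeats glycine followed by any other pair of residues (Gly-X-Y), and the chains of a type are often encoded by separate genes. Fibrillar collagens build the rope-like fibrils of bone, cartilage and skin, FACITs (fibril-associated collagens with interrupted triple helices) sit on the fibril surface, and type IV collagens form the sheet of basement membranes. Type I collagen is the main protein of bone, while types II, IX, X and XI are those of cartilage. METTL3 is the catalytic subunit of the complex that writes m6A on messenger RNA, mostly at adenosines within a GGAC or a similar sequence.

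The libraries held 23978099 to 34106693 counts. Mettl3 itself stood at 17.6 and 16.9 CPM (counts per 1000000, with library sizes scaled by TMM) in the libraries labelled WT and at 17.5 and 16.3 CPM in those labelled cKO, so the gene-level count did not separate the groups. A count over the whole gene also takes in the exons that stay after the deletion, and the labels therefore could not be checked with it. All directions given here rest on the labels. The cultures held markers of several cell types. The 8 macrophage markers summed to 16567 to 24137 TPM (transcripts per 1000000), with 1 of 8 called, Ptprc, which was higher in cKO. Most of that sum was Lyz2, at 14418 and 20117 TPM in WT and 21566 and 21709 TPM in cKO. The 11 stromal markers summed to 831 to 900 TPM, with 4 higher and 5 lower in the libraries labelled cKO. In such bulk samples, fewer cells of a type and less RNA per cell cannot be told apart. The 2 libraries labelled cKO differed little more than counting error (chi-square over its degrees of freedom 1.82, against 32.6 for the WT pair). Nothing states that replicates came from separate cultures or animals, so the p-values measure only the spread between these libraries.

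Collagen chain transcripts made up a smaller part of the RNA in the libraries labelled cKO. They took 1.87% and 1.82% of all counts in the WT libraries and 1.02% and 1.03% in the cKO libraries, a ratio of 1.80 between the group means. The summed TPM of the 44 genes was 4734 and 4736 against 2569 and 2607. Both measures were higher in each WT library than in either cKO library. With 2 libraries in each group, an exact two-sided permutation test cannot give a p below 1/3, so these sums carry no test.

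Among the 36 genes tested, 19 fell and 10 rose in the libraries labelled cKO at an adjusted p under 0.05 (quasi-likelihood test of edgeR, adjusted by Benjamini-Hochberg over 15327 genes), and 7 did not pass. That is 80.6% of the members, against 30.5% of all genes tested. The members that fell were 52.8% of those tested, against 16.8% of all genes, and those that rose were 27.8%, against 13.7%. A fall of at least 2-fold was called for 14 members (38.9%, against 6.41%) and a rise of at least 2-fold for 6 (16.7%, against 2.79%). The groups did not overlap for 32 of the 36, or 88.9%, against 68.9% of all genes. The median log2 fold change was -0.66 over the members and -0.0038 over all genes tested, and the range ran from -7.64 for Col9a3 to 3.19 for Col28a1.

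The direction differed between structural classes. Of 11 fibrillar chains, 8 fell, 1 rose and 2 did not pass, with a median log2 fold change of -0.90. Of 9 FACIT chains, 7 were tested, of which 4 fell, 1 rose and 2 did not pass, with a median of -1.51. Of the 6 basement membrane chains, 4 rose, none fell (0 of 6) and 2 did not pass, with a median of 0.63. Of the 18 remaining chains, 12 were tested, and 7 fell, 4 rose and 1 did not pass. No test of the difference between classes was made.

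**Figure D1:**
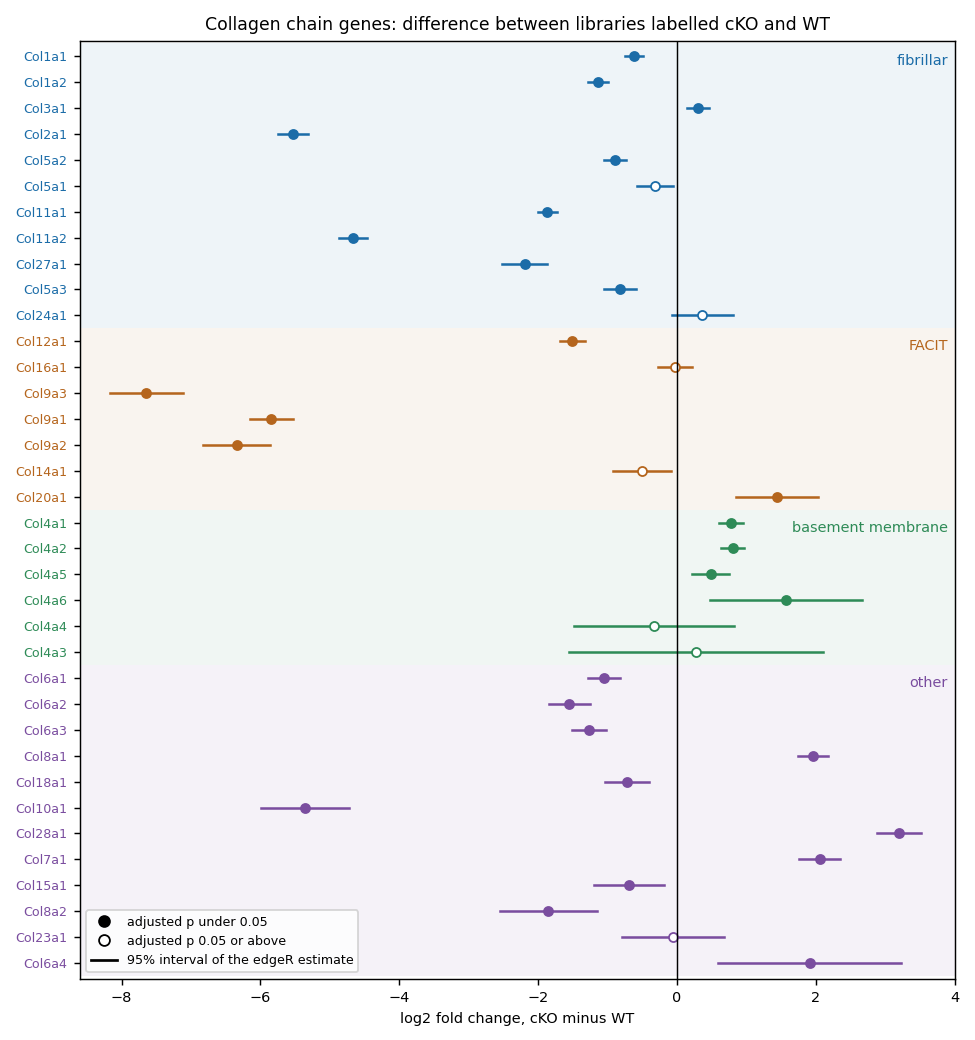
Each point is the log2 fold change (x axis, cKO minus WT) of 1 of the 36 tested collagen chain genes (y axis, grouped by class and ordered by mean level), with its 95% interval as a line; filled points passed an adjusted p of 0.05. The Col9 chains, Col2a1, Col10a1 and Col11a2 lie far to the left, and the 4 basement membrane chains called lie to the right of 0.

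The chains of type I collagen, the main fibril of bone, both fell, but not equally. Col1a1 (chr11:94936224-94953042, plus strand, gene positions being those of mm10) was at 1896 and 1921 CPM in the WT libraries and at 1225 and 1259 CPM in the cKO libraries, with a log2 fold change of -0.62 ± 0.06 (SE, edgeR adjusted p = 0.000584). Its partner Col1a2 (chr6:4504814-4541544, plus strand) was at 1862 and 1759 CPM against 811 and 829 CPM, a change of -1.14 ± 0.06 (edgeR adjusted p = 6.96e-05). Both WT libraries were above both cKO libraries for either gene. The type III chain Col3a1 (chr1:45311538-45349706, plus strand), which forms thin fibrils in soft connective tissue, went the other way. It was at 1130 and 1025 CPM in WT and 1322 and 1329 CPM in cKO, a rise of 0.30 ± 0.07 (edgeR adjusted p = 0.0185). The rise was the smallest of the calls, and its adjusted p was 0.221 with the cKO libraries summed to 1 sample and 0.226 and 0.235 with either cKO library left out.

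Col5a2 lies 24614 bases from Col3a1 on the opposite strand of chromosome 1 and moved in the other direction. Type V collagen is incorporated into type I fibrils and limits their width. Col5a2 was at 1121 and 1022 CPM in WT and at 580 and 573 CPM in cKO (log2 fold change -0.90 ± 0.07, edgeR adjusted p = 0.00028). Col5a1 had 833 and 659 CPM in WT and 595 and 602 CPM in cKO and did not pass (-0.32 ± 0.11, edgeR adjusted p = 0.0725). The WT replicates of Col5a1 differed more from each other than the lower of them did from the cKO libraries. The minor chain Col5a3 was at 49.9 and 43.0 CPM against 25.6 and 26.8 CPM, a change of -0.83 ± 0.09 (edgeR adjusted p = 0.00159).

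The fibrillar chains of cartilage fell the most in this class. Col2a1 (chr15:97975602-98004695, minus strand), the chain of type II collagen, was at 2405 and 2195 CPM in the WT libraries and at 47.9 and 51.5 CPM in the cKO libraries, 46.2-fold lower (log2 fold change -5.53 ± 0.09, edgeR adjusted p = 1.61e-06). Per length its mean of 669 TPM was the highest of the collagen chains in WT, although Col6a1 and Col6a2 (699 and 681 TPM) were above it (633 TPM) in WT replicate 2, and it ranked 16 among the 44 in the cKO libraries with 14.7 TPM. Col11a1, which nucleates cartilage fibrils together with Col11a2, was at 627 and 650 CPM against 173 and 177 CPM, 3.64-fold lower (-1.87 ± 0.06, edgeR adjusted p = 1.13e-05). The fall of Col11a2 was steeper, from 135 and 126 CPM to 5.04 and 5.21 CPM, or 25.4-fold (-4.67 ± 0.08, edgeR adjusted p = 1.61e-06). Col27a1, a fibrillar chain found mostly in cartilage, had 67.6 and 86.2 CPM against 17.8 and 15.8 CPM (-2.20 ± 0.13, edgeR adjusted p = 0.000129).

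Markers of chondrocytes moved with these chains. Of the 11 genes in the chondrocyte list, none of them a collagen, 10 were tested and 9 fell, with a median log2 fold change of -5.00. Their summed level was 689 and 750 TPM in the WT libraries and 22.1 and 20.3 TPM in the cKO libraries, and no marker of the list was at 0 in all libraries. Acan, the large proteoglycan of cartilage, was at 325 and 489 CPM against 1.11 and 0.628 CPM. The part of this list in the fall of the cartilage collagens was not tested. Osteoblast markers summed to 6925 and 16422 TPM in WT and 6991 and 6917 TPM in cKO. This sum differed more between the WT replicates than between the groups. Most of it was Spp1, at 6714 and 16163 TPM in WT and 6864 and 6784 TPM in cKO. Of the 7 osteoblast markers tested, 5 were lower in cKO and none higher (0 of 7). For these 5, Runx2, Sp7, Alpl, Bglap and Ibsp, both WT libraries were above both cKO libraries in CPM.

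Several members had an m6A peak in the coding part of their last exon, among them chains of the main cartilage and bone fibrils. The peak list, made from wild type cells, held such a peak for, among others, Col1a1, Col1a2 and Col2a1, in the C-propeptide and downstream of the Gly-X-Y region. Fold enrichment over the local background was 3.11 for Col1a1 (pileup 199, -log10 q 37.2), 1.90 for Col1a2 (pileup 158, -log10 q 10.03) and 3.28 for Col2a1 (pileup 51, -log10 q 10.1). The coding part of this exon up to the stop codon is 144 bases long in each. The sequences are shown so that the positions of summits and motifs in these homologous exons can be compared, from the mm9 genome and in the direction of the transcript, with GGAC in capitals, for Col1a1 (chr11:94812787-94812930, plus), Col1a2 (chr6:4490516-4490659, plus), Col2a1 (chr15:97806474-97806617, minus) and, for comparison, Col5a2 (chr1:45432932-45433075, minus).
Col1a1: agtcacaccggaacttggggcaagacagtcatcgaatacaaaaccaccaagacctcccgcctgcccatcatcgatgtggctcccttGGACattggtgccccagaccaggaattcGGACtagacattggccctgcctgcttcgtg
Col1a2: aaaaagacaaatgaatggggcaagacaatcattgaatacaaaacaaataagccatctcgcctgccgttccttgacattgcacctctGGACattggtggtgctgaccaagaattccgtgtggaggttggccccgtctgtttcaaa
Col2a1: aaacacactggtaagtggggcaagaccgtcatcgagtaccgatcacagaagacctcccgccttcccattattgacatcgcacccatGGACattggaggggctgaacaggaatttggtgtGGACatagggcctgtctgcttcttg
Col5a2: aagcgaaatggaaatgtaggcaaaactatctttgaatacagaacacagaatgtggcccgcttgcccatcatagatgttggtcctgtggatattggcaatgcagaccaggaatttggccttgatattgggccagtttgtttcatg
Counted from the first base of the exon, the summit lay at base 1 in Col1a1, 79 in Col1a2 and 74 in Col2a1. A GGAC began at base 87 in Col1a1, Col1a2 and Col2a1, at base 115 in Col1a1 and at base 120 in Col2a1. The GGAC nearest to the summit of Col1a1 lay 13 nt upstream of it, in the exon before and not in the sequence shown. Position by position, 68.1% to 74.3% of the bases were identical between any pair of these 3 exons, and 62.5% to 67.4% between Col5a2 and each of them. Col5a2 held no GGAC in these 144 bases (0 matches), and its only peak had its summit 18 nt after the stop codon in the 3′ UTR (fold enrichment 2.33). Col5a1 had a GGAC at base 69 of its last coding exon and no summit there. Compared position by position without gaps, that exon matched those of Col1a1, Col1a2 and Col2a1 at 36 to 39 of 144 bases. A shift of a few bases between exons lowers such a count, so it does not measure how related they are. Col6a1, Col6a2, Col8a1, Col10a1 and Col17a1 also had a coding summit in their last exon, and of these Col8a1 rose, Col6a1, Col6a2 and Col10a1 fell and Col17a1 was not tested.

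Type II collagen fibrils carry type IX collagen, a FACIT whose chains are encoded by Col9a1, Col9a2 and Col9a3, and all of them fell. Col9a3 (chr2:180597790-180622189, plus strand) was at 78.3 and 102 CPM in the WT libraries and at 0.413 and 0.471 CPM in the cKO libraries, 199.99-fold lower (-7.64 ± 0.22, edgeR adjusted p = 8.07e-06). It overlaps Tcfl5 on the opposite strand, which stood at 2.31 and 1.16 CPM on average. Col9a2 was at 24.2 and 28.6 CPM against 0.371 and 0.282 CPM (-6.34 ± 0.20, edgeR adjusted p = 1.08e-05). Col9a1 was at 35.1 and 34.9 CPM against 0.619 and 0.596 CPM (-5.84 ± 0.13, edgeR adjusted p = 3.42e-06). In each gene the lower WT library was far above both cKO libraries, where between 9 and 19 reads remained per gene and library.

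The other FACITs did not move as a group. Col12a1 (chr9:79598991-79718831, minus strand), a large chain of dense connective tissue and bone surfaces, was the most highly counted collagen in the WT libraries with 2616 and 2314 CPM and stood at 870 and 863 CPM in the cKO libraries, 2.84-fold lower (-1.51 ± 0.07, edgeR adjusted p = 5.59e-05). Col14a1, a FACIT of tendon and dermis, had 9.41 and 7.11 CPM against 6.07 and 5.58 CPM and did not pass (-0.51 ± 0.17, edgeR adjusted p = 0.0694). Col16a1 stood at 55.3 and 46.2 CPM against 47.6 and 51.7 CPM with overlapping groups (-0.03, interval -0.27 to 0.21, edgeR adjusted p = 0.853). Col20a1 was counted at 1.12 and 1.03 CPM in WT and 2.72 and 3.14 CPM in cKO (1.44 ± 0.24, edgeR adjusted p = 0.00691), but it overlaps 9230112E08Rik on the same strand, which stood at 10.8 and 11.5 CPM on average, so its count is uncertain. Col19a1 and Col22a1, with at most 15 reads in any library, were not tested.

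Of the type IV chains, Col4a1, Col4a2, Col4a5 and Col4a6 rose in the libraries labelled cKO. Col4a1 (chr8:11198423-11312826, minus strand) was at 685 and 606 CPM in WT and at 1110 and 1104 CPM in cKO, 1.71-fold higher (log2 fold change 0.78 ± 0.07, edgeR adjusted p = 0.000741). Col4a2 (chr8:11312805-11449287, plus strand) was at 581 and 527 CPM against 960 and 973 CPM, 1.74-fold higher (0.80 ± 0.07, edgeR adjusted p = 0.000469). These chains make up the common α1α1α2 trimer of basement membranes, and the genes lie head to head, their annotated ends overlapping by 22 bases. Both WT libraries were below both cKO libraries.

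The other type IV chains were scarcer. Col4a5 was at 25.2 and 31.0 CPM against 38.2 and 40.3 CPM (0.48 ± 0.11, edgeR adjusted p = 0.0203) and Col4a6, which starts 1308 bases from it on the opposite strand of chromosome X, at 0.207 and 0.425 CPM against 0.949 and 0.910 CPM (1.57 ± 0.45, edgeR adjusted p = 0.0425). Without either cKO library the adjusted p was 0.0723 and 0.126 for Col4a5 and 0.210 for Col4a6 in both cases. Col4a3 and Col4a4, a pair 71 bases apart, stayed under 0.5 CPM in every library (0.0708 to 0.473 CPM) and did not pass, with edgeR adjusted p of 0.816 and 0.637. Endothelial markers summed to 4.84 and 5.06 TPM in WT and 12.02 and 11.5 TPM in cKO, with 3 of 4 tested higher. That sum rose mainly through Emcn (0.32 and 0.58 against 6.59 and 5.35 TPM) and Kdr (0.56 and 0.40 against 2.41 and 2.16 TPM). Vwf, higher by counts, was lower in mean TPM (3.66 against 3.12). Cdh5, which did not pass, and Pecam1, not tested, were lower in cKO. Adipocyte markers summed to 410 and 426 TPM against 762 and 782 TPM, with 6 of 8 higher and 1 lower. The part of either list in the rise of type IV collagen was not tested.

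Type VI collagen, the beaded microfibril that surrounds cells, fell in all the chains that make its main trimer. Col6a1 (chr10:76708792-76726168, minus strand) was at 1751 and 2103 CPM in WT and 916 and 941 CPM in cKO (-1.05 ± 0.09, edgeR adjusted p = 0.000569). Col6a2, 85161 bases away on the same strand, was at 1521 and 1988 CPM against 590 and 609 CPM (-1.55 ± 0.12, edgeR adjusted p = 0.000371). Col6a3, on chromosome 1, was at 1097 and 887 CPM against 411 and 411 CPM (-1.27 ± 0.10, edgeR adjusted p = 0.000391). The cKO libraries lay below both WT libraries in each gene. The alternative chain Col6a4 had only 3 and 5 reads in the WT libraries and 12 and 16 in the cKO libraries, and its call (1.91 ± 0.55, edgeR adjusted p = 0.0413) was lost in DESeq2, where the adjusted p was 0.191, and without either cKO library (0.218 and 0.252). Col6a5 and Col6a6, with at most 1 read in any library, were not tested.

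The short-chain collagens, which form hexagonal networks, split. Col8a1 (chr16:57624258-57754737, minus strand), a chain of vessel walls and of the Descemet membrane of the cornea, was at 60.1 and 50.8 CPM in WT and at 213 and 217 CPM in cKO, 3.87-fold higher (1.95 ± 0.09, edgeR adjusted p = 4.28e-05). Col8a2, its partner, fell from 3.19 and 2.37 CPM to 0.825 and 0.722 CPM (-1.85 ± 0.29, edgeR adjusted p = 0.00522). Col10a1 (chr10:34389981-34397085, plus strand), the marker collagen of hypertrophic chondrocytes, was at 62.7 and 96.1 CPM against 1.98 and 1.88 CPM, 41.1-fold lower (-5.36 ± 0.26, edgeR adjusted p = 5.26e-05). Col10a1 lies inside Nt5dc1 on the opposite strand, which stood at 15.3 and 16.1 CPM on average.

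Among the remaining chains, Col28a1 rose the most of all collagen genes. It was at 2.07 and 1.88 CPM in WT and 17.5 and 18.7 CPM in cKO, 9.15-fold higher (3.19 ± 0.13, edgeR adjusted p = 2.58e-05). In adult mice type XXVIII collagen is known mainly from peripheral nerve, around glial cells. Markers of Schwann cells went the other way, with 4 of 4 tested lower and a sum of 31.0 and 34.5 TPM in WT against 4.93 and 4.67 TPM in cKO. Col7a1, the anchoring fibril of the skin, was at 3.43 and 3.29 CPM against 14.3 and 13.7 CPM, 4.16-fold higher (2.06 ± 0.12, edgeR adjusted p = 0.000118), while epithelial markers summed to at most 3.28 TPM in any library.

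Both multiplexins, collagens with a C-terminal endostatin-type domain, fell by less than 2-fold. Col18a1 was at 111 and 149 CPM in WT against 78.1 and 79.6 CPM in cKO (-0.72 ± 0.13, edgeR adjusted p = 0.00969), and it overlaps Slc19a1 on the opposite strand, at 23.9 and 18.2 CPM on average. Col15a1 was at 8.96 and 6.08 CPM against 4.75 and 4.61 CPM (-0.69 ± 0.21, edgeR adjusted p = 0.0498), a call lost under 8 of 14 alternatives, with adjusted p-values of 0.0508 to 0.554 there. Of the transmembrane collagens, Col23a1 alone was tested, at 1.18 and 1.10 CPM against 0.949 and 1.22 CPM (interval of the log2 fold change -0.80 to 0.68, edgeR adjusted p = 0.903). The other transmembrane chains were not tested: Col13a1 was listed at 0 in every library, Col17a1 had 16, 1, 2 and 6 reads (WT, then cKO) and Col25a1 had 7, 15, 0 and 1. Col26a1 was also listed at 0 in every library. The fibrillar chain Col24a1 was tested but did not pass, at 3.28 and 2.90 CPM against 3.797 and 4.17 CPM (0.37 ± 0.18, edgeR adjusted p = 0.183). Its TPM, at 0.62 and 0.54 against 3.36 and 1.62, differed more than its counts did.

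**Figure D2:**
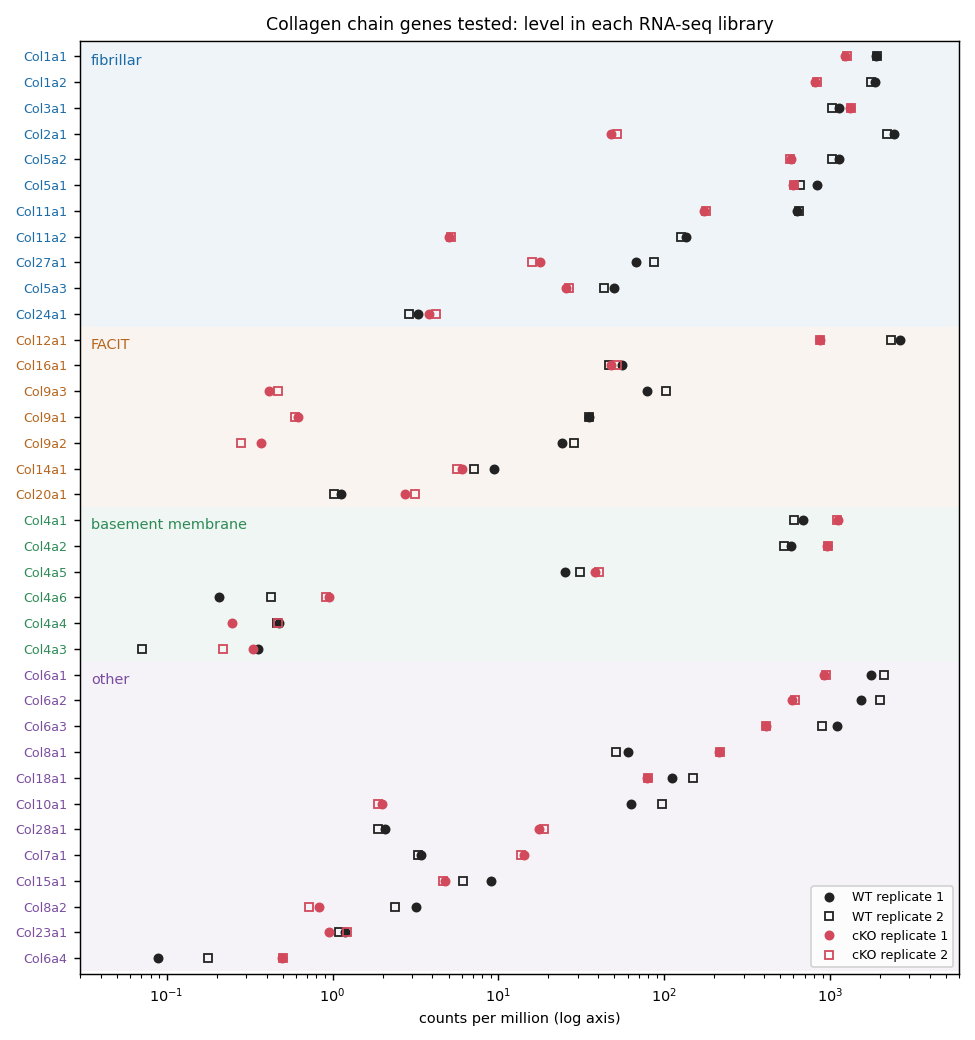
The level of each tested collagen chain gene (y axis) in CPM on a log axis (x axis) is shown for each library: black for WT, red for cKO, filled circles for replicate 1 and open squares for replicate 2. The cKO replicates nearly coincide for most genes above 10 CPM, while the WT replicates of Col5a1, Col10a1 and Col18a1 are visibly apart.

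By TPM, which corrects for length, the make-up of the collagen transcripts shifted. Fibrillar chains were 53.99% and 49.3% of the collagen TPM in WT and 46.9% and 47.0% in cKO. FACIT chains went from 10.7% and 10.8% to 5.97% and 6.09%. Basement membrane chains went from 5.66% and 5.02% to 18.8% and 18.0%, while the type VI chains were 27.9% and 32.7% in WT and 24.5% and 25.03% in cKO. The 8 cartilage chains Col2a1, Col9a1, Col9a2, Col9a3, Col10a1, Col11a1, Col11a2 and Col27a1 together made up 21.2% and 20.2% of the collagen TPM in WT and 2.11% in either cKO library. With Col2a1 low, the 5 highest chains of the cKO libraries were Col3a1 (345 TPM), Col6a1 (333 TPM), Col1a1 (302 TPM), Col1a2 (279.7 TPM) and Col4a1 (252 TPM). The order of these chains was not tested.

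Because the chains of a trimer come from separate genes, the ratio of their transcripts was compared between the groups. The ratio of Col1a1 to Col1a2 TPM was 0.762 and 0.857 in the WT libraries and 1.07 and 1.09 in the cKO libraries. Counts divided by gene length gave other levels, 1.93 and 2.07 against 2.86 and 2.88, so which chain is the more abundant depends on the length used, but the ratio was higher in cKO with both. In type VI collagen, Col6a1 to Col6a2 was 1.12 and 1.03 in WT and 1.51 and 1.501 in cKO. Col5a1 to Col5a2 went from 0.579 and 0.499 to 0.795 and 0.802. For Col4a1 to Col4a2 the groups overlapped, at 1.14 and 1.12 in WT and 1.22 and 1.12 in cKO.

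Larger shifts were seen in pairs of which 1 or both chains were scarce in cKO. Col11a1 to Col11a2 was 1.79 and 2.15 in WT and 18.6 and 26.1 in cKO. Col8a1 to Col8a2 went from 15.8 and 18.1 to 216 and 257. On average Col8a1 was at 14.7 TPM in WT and 61.0 TPM in cKO, and Col8a2, scarce in both groups, at 0.88 and 0.26 TPM. Col9a1 to Col9a3 went from 0.337 and 0.271 to 0.857 and 0.875, on cKO values of at most 0.5 TPM. The groups overlapped for Col6a1 to Col6a3 (2.95 and 4.18 against 3.96 and 3.85) and for Col9a1 to Col9a2 (1.28 and 1.02 against 1.26 and 1.87). From length-scaled counts the latter did not overlap, at 0.884 and 0.746 against 1.02 and 1.29.

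**Figure D3:**
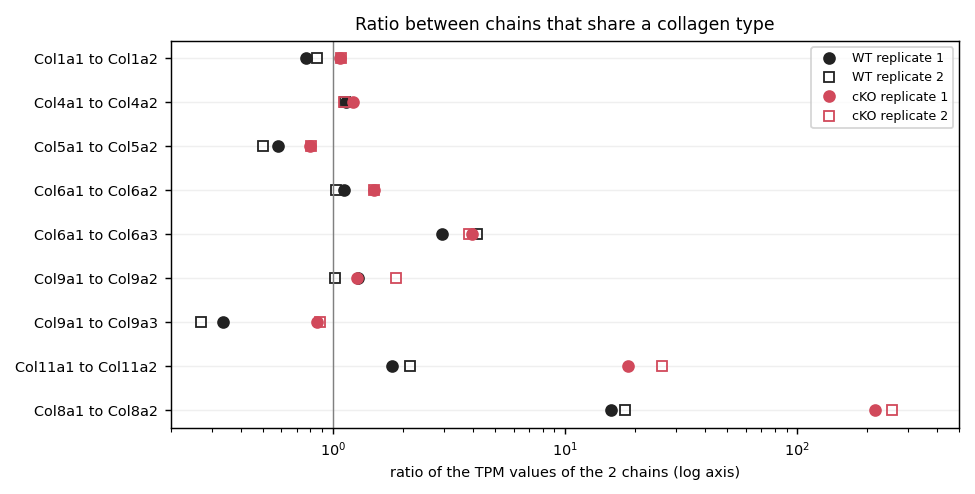
The ratio of the TPM of 2 chains of a collagen type is plotted on a log axis (x axis) for each library, 1 row for each of 9 chain pairs; black is WT, red is cKO, circles are replicate 1 and squares replicate 2. Col11a1 to Col11a2 and Col8a1 to Col8a2 lie far to the right in both cKO libraries, and the Col4a1 to Col4a2 points of the groups overlap.

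In the wild type peak list, 33 of the 10160 m6A peaks had their summit in a collagen chain gene, on 16 of the 44 members. Of the 36 members tested by RNA-seq, 15 (41.7%) carried a peak, against 40.3% of the 14118 genes tested and annotated. The share depended on the level: all 8 members with a mean of at least 1000 CPM in WT had a peak (74.1% of 81 genes at that level), 4 of 7 between 100 and 1000 CPM (52.3% of genes), 2 of 9 between 10 and 100 CPM (48.3%) and 1 of 8 between 1 and 10 CPM (28.1%). Below 1 CPM none of 4 had a peak (7.97% of genes). The median log2 fold change was -0.90 over the 15 tested members with a peak, of which 10 fell and 3 rose. It was -0.34 over the 21 without one, of which 9 fell and 7 rose. Over all genes tested the order was the other way, with medians of 0.087 with a peak and -0.085 without one. Of all genes tested, with or without a peak, 16.8% fell and 13.7% rose. The groups of members also differ in level, with a median of 1072 and 8.26 CPM in WT, and no test of them was made.

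Most of the peaks lay in coding sequence. Of the 33 summits, 24 were in coding exons (72.7%, 95% Wilson interval 55.8% to 84.9%), 6 in 3′ UTRs, 2 in 5′ UTRs and 1 in an intron. Over all 9397 peaks within genes, 61.3% were in coding exons and 25.6% in 3′ UTRs. The coding share of all peaks lies within that interval. The interval treats the peaks as independent, although several genes hold more than 1 of them. A GGAC was present in 30 of the 33 peaks, or 90.9%, against 86.9% of all peaks within genes. The fold enrichment had a median of 2.95 on collagen genes (1.82 to 6.93) and of 3.91 over all.

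**Figure D4:**
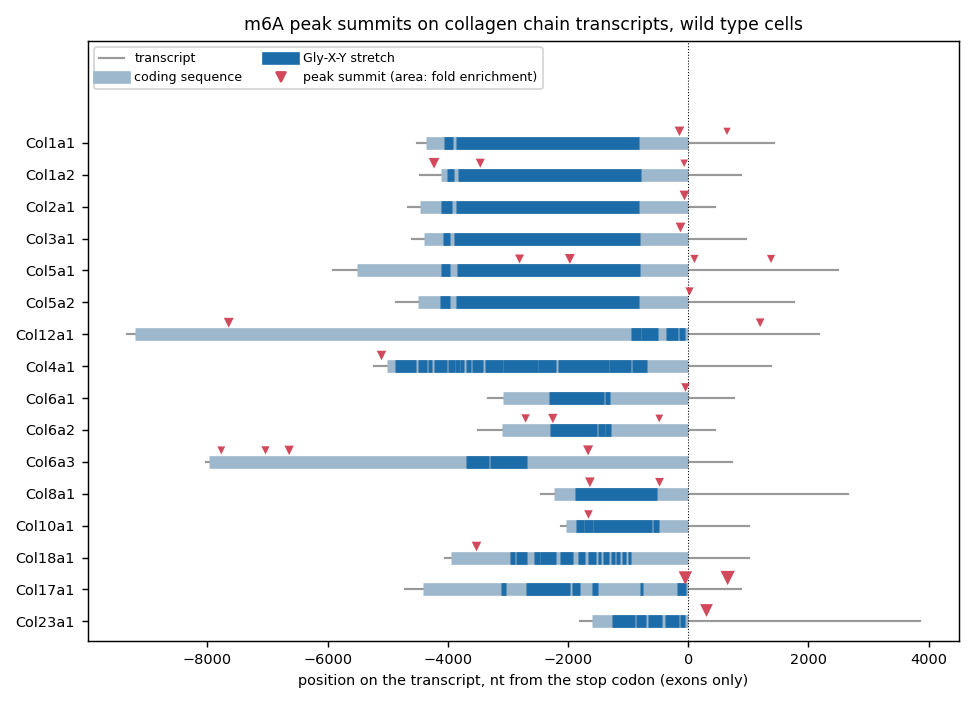
Transcripts of the 16 collagen genes with a peak (y axis) are drawn by distance from the stop codon in nt (x axis), with coding sequence in light blue, Gly-X-Y stretches of at least 6 triplets in dark blue and peak summits as red triangles whose area follows fold enrichment. Of 21 coding summits on the drawn transcripts, 7 lie in a Gly-X-Y stretch, and 8 of 30 summits lie within 200 nt of the stop codon. The second summit of Col12a1 is in the coding sequence of another transcript and is drawn after the stop codon of this one.

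On the 1 transcript taken for each gene, 21 of the coding summits could be placed, of which 7 (33.3%) lay in a Gly-X-Y stretch, while such stretches made up 47.8% of the coding sequence of the same genes. Within 200 nt of the stop codon lay 8 of the 30 summits placed. The nearest GGAC was a median of 20 nt away and at most 806 nt, and 20 of the 30 had a GGAC within 50 nt. Col6a3 had the most peaks, 5, all in its coding sequence, and those placed lay outside its short helix. Col5a1 had 4, Col1a2 and Col6a2 had 3 each, and Col17a1 had 2 with the highest fold enrichment of the collagen genes, 6.17 and 6.93, although it had at most 16 RNA-seq reads in any library and its pileup was only 17 and 24.

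The other members had 1 or 2 peaks each. Col4a1, the type IV chain with a peak, had it in the 5′ UTR (pileup 49, fold enrichment 3.05, -log10 q 8.50), and Col1a2 had one there as well (pileup 105, fold enrichment 3.865, -log10 q 26.6). Col6a1 had a peak 55 nt before the stop codon in its last exon (pileup 190, fold enrichment 2.54), outside the helix. Col12a1 had 2 coding peaks with fold enrichments of 3.34 and 2.58, Col18a1 had 2 with 5.30 and 3.11, and Col23a1 had 1 in its 3′ UTR with 5.56. The peak in an intron was that of Col3a1 (pileup 103, fold enrichment 2.13).

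The peak with the highest pileup of all collagen genes lay in the triple-helix part of Col8a1, the chain that rose 3.87-fold (pileup 241, fold enrichment 3.21, -log10 q 47.3). Sequences around summits inside Gly-X-Y stretches are shown for Col8a1 (chr16:57628602-57628718 on mm9, minus), Col10a1 (chr10:34114149-34114268, plus), Col5a1 (chr2:27851226-27851270, plus) and Col6a2 (chr10:76074693-76074746, minus), as examples in which the motif falls within the glycine repeat. They were chosen for holding GGAC after their values were seen. Of the windows around the 7 summits in Gly-X-Y stretches, 5 held a GGAC, and those of Col1a2 and Col17a1 held none (0 matches). The Col17a1 summit, at coding base 4365, is close to the end of its stretch at base 4368. Most of that window therefore lies outside the stretch. Each sequence shown starts at the first base of a codon, and capitals mark GGAC.
Col8a1: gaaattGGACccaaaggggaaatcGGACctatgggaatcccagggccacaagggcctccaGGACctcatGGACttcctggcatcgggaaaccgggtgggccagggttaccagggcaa
Col10a1: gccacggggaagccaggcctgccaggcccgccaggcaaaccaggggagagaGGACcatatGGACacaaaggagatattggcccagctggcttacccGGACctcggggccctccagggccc
Col5a1: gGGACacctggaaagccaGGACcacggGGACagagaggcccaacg
Col6a2: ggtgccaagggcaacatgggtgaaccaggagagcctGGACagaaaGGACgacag
In the window of Col8a1 all 4 GGAC began at the first base of a codon, where they read as the glycine codon GGA followed by a codon that starts with C. The same held for 3 of 3 in Col10a1, for 2 of 2 in Col6a2 and for 2 of 3 in Col5a1. Col10a1 fell and Col8a1 rose, so genes with a peak of this kind did not share a direction. The Col10a1 peak was weaker than that of Col8a1 (pileup 40, fold enrichment 2.50, -log10 q 4.43). Its summit also lies within Nt5dc1, on the opposite strand.

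The motif was frequent in collagen coding sequence as a whole. The median was 11.2 GGAC per 1000 coding bases over the 44 members and 4.60 over all 21634 coding genes of the annotation. All 44 members were above the median of all genes, and 37 were in the top 10%. The basement membrane chains had the highest median of the classes, 14.4, followed by 10.9 for the other chains, 10.6 for the FACITs and 10.3 for the fibrillar chains. The lowest value was that of Col12a1, 5.33, whose coding sequence is 8.19% Gly-X-Y, and the highest that of Col13a1, 18.5.

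The reading frame of the motif was also counted. Of 2120 GGAC in the coding sequences of the members, 73.2% began at the first base of a codon, against 22.6% of those in all coding genes, and 60.2% of these were followed by a proline codon, against 28.3%. A Gly-X-Y stretch was a run of at least 6 codon triplets, each opening with a codon that starts with GG. In-frame GG is thus fixed in these stretches, and a raised GGAC density there follows in part from the definition. Within Gly-X-Y stretches the density was 16.2 per 1000 bases, and outside them it was 5.52, compared with 4.88 outside such stretches over all coding genes. These stretches held 74.1% of the motifs of the members and 49.4% of their coding bases. The broader motif DRACH, in which D is any base but C, R a purine and H any base but G, was only 1.15 times as dense in the members as in all coding genes. A match of the letters is a description and does not show methylation.

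**Figure D5:**
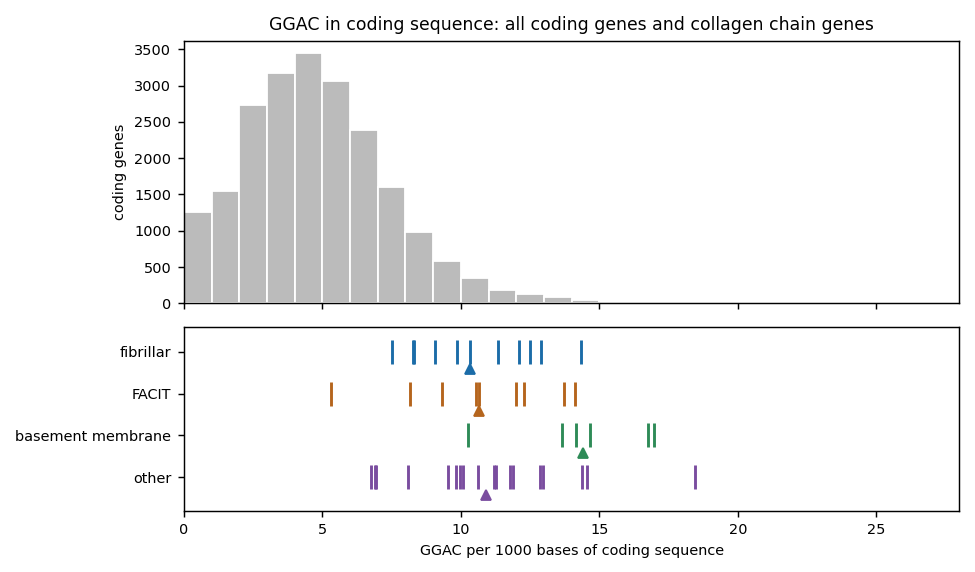
The upper panel counts all 21634 coding genes (y axis) by GGAC per 1000 bases of coding sequence (x axis), and the lower panel marks each of the 44 collagen chain genes on the same axis by class, with a triangle under the class median. The basement membrane chains lie furthest to the right, with a median of 14.4.

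The genes that make, process and hold collagen were taken from lists of 100 genes, of which 92 were tested. In the libraries labelled cKO 58 fell, 13 rose and 21 did not pass, with a median log2 fold change of -0.46. The share called was 77.2%, against 30.5% of all genes tested, with 63.0% lower (16.8% of all genes) and 14.1% higher (13.7%). All 15 genes of the biosynthesis list fell, with a median of -0.68. Most of them hydroxylate prolines and lysines of the chain or add sugars to it. The highest of the 15, P4hb, a subunit of prolyl 4-hydroxylase, was at 869 and 897 CPM in WT and 550 and 550 CPM in cKO (-0.68 ± 0.06, edgeR adjusted p = 0.000408). The largest fall was that of P3h2, a prolyl 3-hydroxylase, from 31.0 and 48.1 CPM to 1.53 and 1.95 CPM (-4.49 ± 0.27, edgeR adjusted p = 0.000126). Of the 14 folding and secretion genes tested, 11 fell and none rose (0 of 14), among them the collagen chaperone Serpinh1 (-0.79 ± 0.07, edgeR adjusted p = 0.000651) and Fkbp10 (-1.02 ± 0.09, edgeR adjusted p = 0.000582), a peptidyl-prolyl isomerase.

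Outside the cell the lists were mixed. Of 7 propeptide processing genes tested 3 fell and 1 rose: Adamts3, a procollagen N-proteinase acting on type II, changed by -2.56 ± 0.31 and Adamts2, which acts on types I to III, by 0.44 ± 0.06 (edgeR adjusted p = 0.00201 and 0.00256). Of the 6 crosslinking enzymes 3 fell and 2 rose, with Lox at 2351 and 2195 CPM in WT against 1486 and 1502 CPM in cKO (-0.61 ± 0.06, edgeR adjusted p = 0.000952) and Loxl2 at 133 and 116 CPM against 218 and 221 CPM (0.82 ± 0.08, edgeR adjusted p = 0.000872). Of the 17 fibril partners tested 12 fell and 3 rose. The largest of these falls were those of Lum, Comp and Dcn (-7.18, -5.37 and -4.85), of which Comp is also a chondrocyte marker. Among 7 degradation genes tested, 4 fell, including the collagenase Mmp13 (-4.70 ± 0.08, edgeR adjusted p = 1.61e-06), and 1 rose, the gelatinase Mmp2 (0.58 ± 0.06, edgeR adjusted p = 0.000777).

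Of 10 receptors tested, 4 fell and 1 rose. Itga10, the integrin chain of chondrocytes that binds type II collagen, fell by 2.13 on the log2 scale (edgeR adjusted p = 2.32e-05), and Ddr2, a kinase receptor of fibrillar collagen, rose by 0.58 (edgeR adjusted p = 0.00486). The basement membrane partners of type IV collagen did not share its direction: of 16 tested, 5 rose, 6 fell and 5 did not pass. Lama2, a laminin chain of muscle and nerve, was at 8.87 and 6.86 CPM in WT and 110 and 109 CPM in cKO (3.79 ± 0.12, edgeR adjusted p = 1.08e-05), and Nid1, which links laminin to type IV collagen, at 231 and 178 CPM against 492 and 506 CPM (1.28 ± 0.12, edgeR adjusted p = 0.000709). Nid2, the paralogue of Nid1, fell from 157 and 122 CPM to 78.3 and 81.9 CPM (-0.80 ± 0.12, edgeR adjusted p = 0.00438).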

How the data were processed

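RNA-seq libraries (2 WT, 2 cKO) and MeRIP-seq libraries (2 m6A IP, 2 input) were grouped by their labels. The members and gene lists were chosen with earlier results of these data known. The authors mapped RNA-seq reads with HISAT2 2.0.4; the labels' processing notes also name TopHat, MACS2, mm10 and mm9. They deposited estimated counts per gene, not normalized, and values headed FPKM, which sum to 1000000 in each library and were used as TPM. Strand use in counting is not given in the sources used here. The deposited peak list, 1 for all MeRIP-seq samples and pooled or not is not stated, holds pileup signal, fold enrichment as a ratio and -log10 p- and q-values from the authors' peak caller, on mm9. The 89 entries without a name (0.110% to 0.125% of counts) were left out.

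Estimated counts were rounded and tested with edgeR 4.0.16 (filterByExpr, TMM, glmQLFit, glmQLFTest, two-sided, no block, Benjamini-Hochberg adjustment over 15327 genes), after a test on simulated counts. Errors of log2 fold changes are SEs. Peaks were assigned by summit to GENCODE vM1 on mm9, with 1 transcript for each gene, and motifs were counted on the coding strand only, overlaps included. Intervals cover counting error only. Text values cover members past an adjusted p of 0.05, the 2 highest of each class, members with a peak and, of each pathway list, examples among its largest changes and highest counts. Col20a1, Col10a1, Col18a1, Col9a3 and Col4a1 with Col4a2 overlap other genes, whose reads could be mixed with theirs. Alternatives were the replicate block, no filter, other size factors, library sizes without collagen genes, DESeq2 1.42.0, limma 3.58.1 on log2(TPM + 0.1), a linear model on log2(TPM + 1) as in Ballgown, a 2-fold rule, each library left out, cKO libraries summed, truncated counts, stricter peaks, the longest transcript and DRACH. The values and sequence of 1 further last-exon peak are not reported here.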

Additional observations from a re-analysis of the deposited data

How the results depend on the processing

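Of the 29 members called, 22 kept their call in each refit across genes (at most 14 for a gene) other than the linear model on log2(TPM + 1), and none of the 29 changed sign in any refit (0 of 29). The 7 lost in at least 1 other refit were Col3a1, Col20a1, Col4a5, Col4a6, Col6a4, Col15a1 and Col18a1. The linear model called 4 members (24 at an unadjusted p under 0.05), 5 pathway genes and 99 genes in all. With limma on TPM the counts were 35 pathway genes and 1696 genes, and with an unadjusted p under 0.05 and a 2-fold change, which is no refit, 27 and 1611, with 20 of the members, so that chains such as Col1a1, Col5a2, Col4a1 and Col4a2 were not called. Summing the cKO libraries gave 2012 genes in all. Leaving out 1 library gave 23 to 32 members, 48 to 83 pathway genes and 1867 to 8750 genes in all, the high counts without a WT library, where the closely matching cKO pair sets the spread. The median of the members was -0.76 with no filter and -0.66 to -0.86 with 1 library left out. Members that did not pass changed sign: Col16a1 (0.0689 with limma, 0.0665 with the linear model, -0.151 to 0.118 with 1 library left out), and, with 1 library left out, Col4a3 (-0.396 to 0.581), Col4a4 (-0.899 to 0.0157) and Col23a1 (-0.261 to 0.105). The cause was not tested. From length-scaled counts the WT over cKO quotient of the chain ratios was 0.286 for Col9a1 to Col9a3 and 0.143 for Col11a1 to Col11a2, against 0.351 and 0.0882 by TPM, and Col9a1 to Col9a2 no longer overlapped between the groups. With DRACH the density ratio of members to all coding genes was 1.15, against 2.44 with GGAC. The deviations of replicate 1 from its group mean had a correlation of 0.0264 between WT and cKO over 15327 genes. With 2 libraries in each group, this value cannot decide whether the libraries were paired. The replicate block gave 31 members, adding Col5a1 and Col14a1, 73 pathway genes and 4881 genes in all.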
